A study of Homo sapiens with 9 samples.

Results

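Complement components and regulators are described here by 9 genes: CFB, C2, C3, C1R, C1S, SERPING1, CD46, CD55 and CD59. They were given by name, and each is represented by its probe with 1 gene symbol and the highest mean over the arrays. All 9 were measured, among 18417 genes with such a probe. RNA is described as coming from MDA-MB-231, an established human triple negative breast cancer cell line. Some markers of this line, given below, went against it. Sub-confluent cultures were left untreated (UT), or were treated for 24 hours with SID peptide at 2.5 μM or with its scrambled control (SCR). The labels give no dose for SCR, and the paper's methods give 2.5 μM for both peptides. Times are those of the labels. A supplement of the study heads SCR replicate 3 with a longer time, so the treatment time of that array is uncertain. SID is a decoy of the domain through which transcription factors bind the corepressor SIN3. Each group has 3 arrays, described as independent replicates, and all values are log2 signals per transcript cluster. For its own array analysis the paper names fewer biological replicates and does not say which arrays these were. All groups are described as coming from the same cell line and medium, and the labels give no other allele or agent.

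Complement is a cascade of plasma and cell surface proteins that tags cells and microbes for removal and can lyse them. C1R and C1S are the proteases of the first component, which start the classical pathway. C2 and factor B (CFB) are the related proteases of the classical and alternative C3 convertases, and C3 is the protein that both convertases cleave. SERPING1 encodes C1 inhibitor, which blocks C1R and C1S. CD46, CD55 and CD59 protect the cell that carries them: CD46 is a cofactor for cleavage of C3b and C4b, CD55 speeds the decay of the convertases, and CD59 blocks the last step of the lytic pore. Liver makes most plasma complement, and epithelial and tumor cells make some of it, with C2, CFB and C3 known as genes that inflammatory cytokines induce.

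The upstream sequences of CFB, C2 and C1R are shown because limma called these genes higher with SID than with SCR in replicates 1 and 2, as described below. C2 and CFB lie close together on chromosome 6, and C1S and C1R are neighbours on chromosome 12. In the order of gene starts alone, ZBTB12 is listed between C2 and CFB, which does not show that it separates them. Each sequence is the 250 bases before a RefSeq transcript start, on the gene's strand, in GRCh38.p14. Of the 9 genes, 6 have such windows in the table used here, and C3, C1S and SERPING1 do not. C2 and C1R have 2 windows each. Capitals mark matches to motifs searched on both strands, and positions count back from the transcript start, with -1 as the base before it.
CFB, chr6:31945845-31946094, plus strand: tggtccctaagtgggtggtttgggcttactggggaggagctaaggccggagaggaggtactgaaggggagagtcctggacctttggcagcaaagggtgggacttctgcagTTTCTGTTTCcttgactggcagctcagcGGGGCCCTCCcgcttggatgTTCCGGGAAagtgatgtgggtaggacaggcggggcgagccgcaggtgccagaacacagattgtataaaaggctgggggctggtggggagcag
C2, outer start, chr6:31897533-31897782, plus strand: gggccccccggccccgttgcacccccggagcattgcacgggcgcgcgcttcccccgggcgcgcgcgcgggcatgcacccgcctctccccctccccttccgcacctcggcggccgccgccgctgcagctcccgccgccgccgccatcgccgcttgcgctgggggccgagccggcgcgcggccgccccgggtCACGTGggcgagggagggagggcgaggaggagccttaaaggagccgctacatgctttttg
C1R, outer start, chr12:7092446-7092695, minus strand: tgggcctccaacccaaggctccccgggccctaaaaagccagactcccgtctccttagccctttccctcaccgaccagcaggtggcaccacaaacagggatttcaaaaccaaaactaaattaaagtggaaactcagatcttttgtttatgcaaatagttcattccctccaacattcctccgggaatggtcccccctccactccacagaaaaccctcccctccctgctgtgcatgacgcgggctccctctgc
C1R, inner start, chr12:7091894-7092143, minus strand: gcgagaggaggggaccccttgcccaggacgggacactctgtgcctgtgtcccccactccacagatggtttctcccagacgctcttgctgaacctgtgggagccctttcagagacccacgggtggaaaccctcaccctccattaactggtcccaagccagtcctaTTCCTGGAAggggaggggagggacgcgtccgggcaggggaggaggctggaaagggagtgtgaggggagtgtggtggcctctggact

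The CFB window held 3 matches, none overlapping another. TTTCTGTTTC at -140 to -131 matched the interferon-stimulated response element, searched as TTTC, any 2 bases and TTTC again, which 3.02% of 35116 RefSeq windows of this length hold. GGGGCCCTCC at -112 to -103 matched the NF-κB consensus, found in 9.96% of windows. TTCCGGGAA at -92 to -84 matched the STAT element TTCNNNGAA, found in 6.57%. Both C2 windows held the E-box CACGTG, at -60 to -55 in the outer and at -38 to -33 in the inner window, a motif in 6.34% of windows. The inner C1R window held TTCCTGGAA at -86 to -78, a match to the STAT element, and the outer window had no match. CD59 had the STAT element TTCTCAGAA in 2 overlapping windows, and the windows of CD46 and CD55 had no match. TGACAG, the core bound by TGIF factors, was in none of these windows, and 13% of all windows hold it. The windows of these genes are few and some overlap, so the lack of a match says little. A match describes letters in a window and shows no binding.

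The arrays fell into 2 sets that the labels do not name. Along a first component that held 78.5% of the variance, principal component analysis put replicate 3 of both peptides beside the UT arrays and replicates 1 and 2 of both peptides at the other end. Between SCR and SID replicate 3 the correlation over 19460 probes was 0.996, while between SCR replicates 1 and 3 it was 0.927. The labelled cell line was checked with its markers. VIM was at 12.75 to 13.34 on every array, but CD44 was at 10.68 to 10.84 in UT and replicate 3 against 13.17 to 13.25 in replicates 1 and 2 of SCR and SID. CDKN2A, which this line is known to have deleted, was at 10.96 to 11.21 in UT and replicate 3. It was at 9.91 to 10.03 in SCR and 7.58 to 7.85 in SID replicates 1 and 2, and its neighbour MTAP moved the same way. The epithelial gene CDH1 was at 10.13 to 11.08 in SCR replicates 1 and 2 and at 6.73 to 7.26 on all other arrays. The epithelial gene EPCAM and the luminal gene GATA3 were at 9.74 to 10.94 and 8.74 to 10.05 in replicates 1 and 2 of both peptides, against 6.14 to 6.87 and 7.12 to 7.54 elsewhere. Thus each set of arrays went against some markers of the labelled line: UT and replicate 3 by CD44 and CDKN2A, SCR replicates 1 and 2 by CDKN2A, CDH1, EPCAM and GATA3, and SID replicates 1 and 2 by EPCAM and GATA3. The leukocyte gene PTPRC (4.84 to 5.07) and the hepatocyte gene ALB (4.98 to 5.13) were low on all arrays, but the immune marker CD68 was at 9.99 to 12.98. The mean of 8 immune markers was 7.04 to 7.17 in UT and replicate 3 and 7.54 to 7.63 in the other arrays, where CD68 was higher. Mean signals ran from 6.85 to 7.30 for 7 fibroblast markers, from 6.71 to 7.45 for 5 endothelial markers (highest in SCR replicates 1 and 2) and from 6.26 to 6.41 for 5 hepatocyte markers. The endothelial CDH5 was at 9.46 to 9.86 in UT and replicate 3 and 9.30 to 10.20 in SCR replicates 1 and 2. In SID replicates 1 and 2 CDH5 was at 7.01 to 7.16. The part of these sets and markers in the results below was not tested, and each of the 9 genes is given with and without replicate 3. All UT arrays lie in the set without replicates 1 and 2 of the peptides. Where those replicates are compared with UT, peptide and array set cannot be told apart. Changes in the number of cells that make an RNA and in the amount per cell cannot be told apart.

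CFB and C2 were higher with SID than with SCR in replicates 1 and 2, by log2 differences of 2.33 and 2.11, whereas in replicate 3 the differences were -0.09 and 0.23. C1R was also higher with SID than with SCR in these replicates. There SID was at about the level of untreated cells, and SCR was below it. In replicates 1 and 2, C1S was far lower with both peptides than in UT, and CD55 was lower with SCR. There C3 and CD46 differed from UT with both peptides by less than 1 log2 unit, and SERPING1 and CD59 stayed within 1 log2 unit over all arrays.

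CFB, the protease of the alternative pathway, measured 8.50, 8.52 and 8.28 in UT replicates 1 to 3. With SCR it was 9.11, 9.30 and 8.66, and with SID 11.37, 11.70 and 8.56. SID replicates 1 and 2 were thus above every other array, and SID replicate 3 lay below SCR replicate 3. The SID signal in replicates 1 and 2 was 5.04-fold that of SCR, a log2 difference of 2.33 with SE 0.15 (n = 2 per group, limma adjusted p = 0.0160). In replicate 3 the difference was -0.09. On all 9 arrays the difference of group means was 1.52 with SE 0.74 (n = 3, limma adjusted p = 0.682), since the SID arrays spread with an SD of 1.73. Its 3 probes, read on the same arrays, gave differences of 1.49 to 1.54 and are not independent measurements.

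C2, which does in the classical pathway what factor B does in the alternative one, measured 6.59, 6.91 and 6.58 in UT. It was 7.13, 7.54 and 6.62 with SCR and 9.23, 9.65 and 6.86 with SID. The order of arrays was close to that of CFB, with SID replicates 1 and 2 far above the rest. SID was 4.32-fold SCR in replicates 1 and 2, a log2 difference of 2.11 with SE 0.21 (n = 2, limma adjusted p = 0.0190). Replicate 3 gave 0.23, and the 9 arrays 1.48 with SE 0.67 (limma adjusted p = 0.665). Of its 3 probes, 2 had identical values, so that they count as 1 measurement.

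C3, the central component, was at 11.15, 11.19 and 11.39 in UT. SCR arrays measured 11.61, 11.99 and 10.82, and SID arrays 12.15, 12.06 and 11.07. Both peptides were above UT in replicates 1 and 2 and below it in replicate 3. SID exceeded SCR in replicates 1 and 2 by 0.30 log2 with SE 0.16 (limma adjusted p = 0.280), which did not pass the test. Both groups exceeded UT there, SID by 0.86 (limma adjusted p = 0.00123) and SCR by 0.56 (limma adjusted p = 0.0116), below the fold limit of 1 log2 unit. On 9 arrays SID exceeded SCR by 0.29 with SE 0.36 (limma adjusted p = 0.905).

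**Figure D1:**
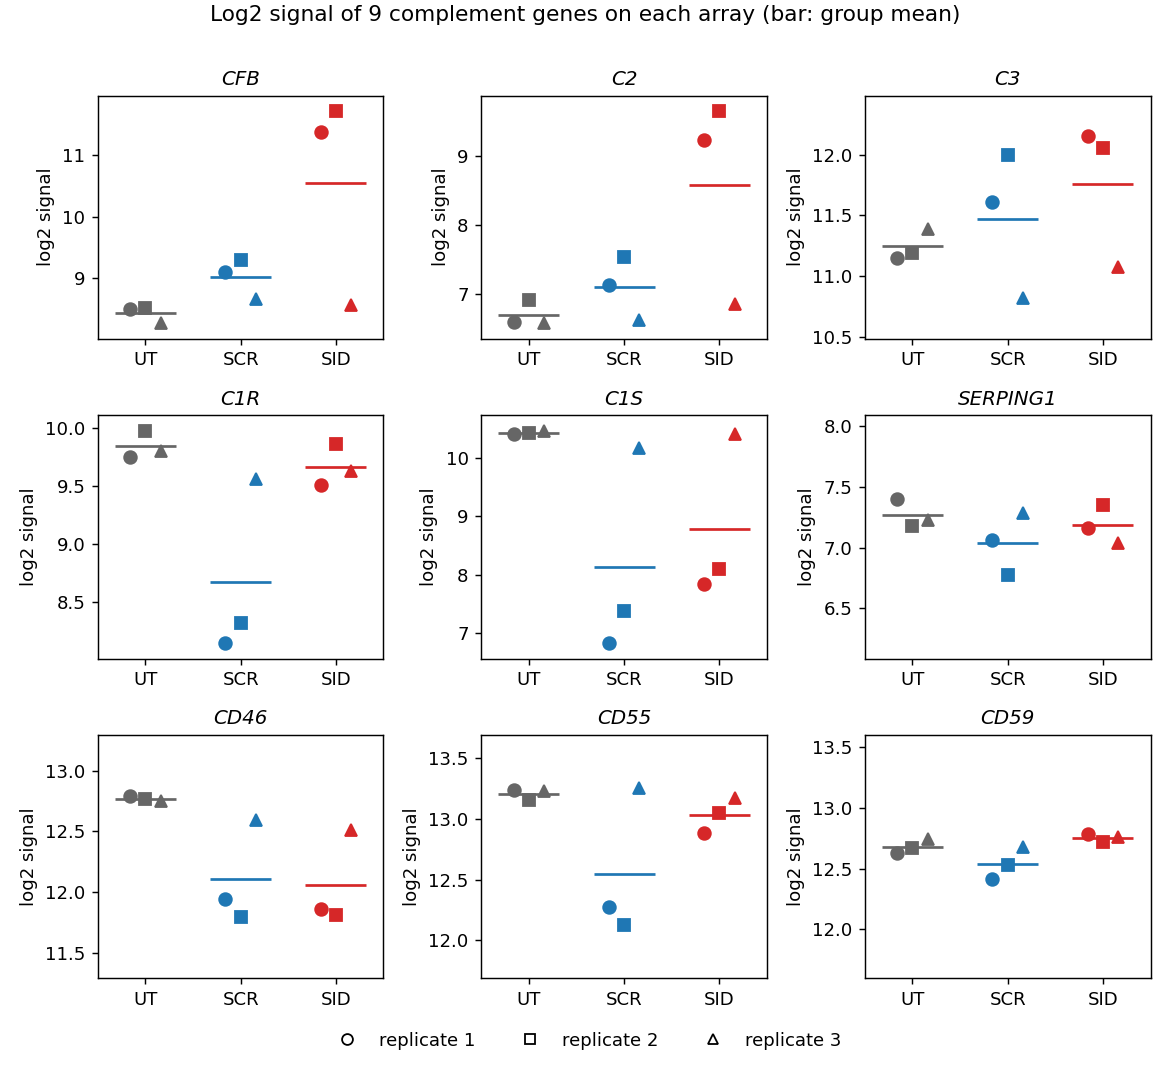
Log2 signal (vertical axis, own range in each panel) of the 9 complement genes on each array of UT, SCR and SID cells. Symbols mark replicates and bars the mean of 3 arrays. CFB and C2 of SID replicates 1 and 2 sit above every other array (11.37 and 11.70 for CFB), and C1R and CD55 of SCR replicates 1 and 2 sit below every other array.

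C1R, the protease that activates C1S, measured 9.75, 9.97 and 9.80 in UT. It was 8.15, 8.32 and 9.56 with SCR and 9.51, 9.86 and 9.63 with SID. The low arrays were therefore SCR replicates 1 and 2, and SID overlapped UT. SID was 2.73-fold SCR in replicates 1 and 2, a log2 difference of 1.45 with SE 0.15 (n = 2, limma adjusted p = 0.0201), while SCR was below UT by a log2 difference of -1.61 (limma adjusted p = 4.59e-05). SID differed from UT by -0.16 with SE 0.13 (limma adjusted p = 0.398). On 9 arrays SID exceeded SCR by 0.99 with SE 0.34 (limma adjusted p = 0.657).

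C1S, the protease that cleaves C4 and C2, measured 10.41, 10.43 and 10.46 in UT. With SCR it was 6.84, 7.38 and 10.18, and with SID 7.84, 8.10 and 10.41. Its lowest arrays were again SCR replicates 1 and 2, with SID replicates 1 and 2 next and far below UT. In these replicates SCR differed from UT by -3.33 with SE 0.16 (limma adjusted p = 2.96e-06) and SID by -2.46 with SE 0.16 (limma adjusted p = 1.26e-05). UT signal was thus 10.0-fold that of SCR and 5.52-fold that of SID. SID exceeded SCR by 0.86 with SE 0.22 there (limma adjusted p = 0.0735), which did not pass the test. On 9 arrays the log2 differences from UT were -2.30 for SCR and -1.65 for SID (limma adjusted p = 0.344 and 0.415).

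SERPING1, the inhibitor of both proteases, was at 7.40, 7.18 and 7.23 in UT, 7.06, 6.77 and 7.28 in SCR, and 7.16, 7.35 and 7.04 in SID. The 3 groups overlapped, and no comparison passed the test. SID differed from SCR by 0.34 with SE 0.14 in replicates 1 and 2 (limma adjusted p = 0.193) and by -0.24 in replicate 3. On 9 arrays the difference was 0.15 with SE 0.15 (limma adjusted p = 0.857).

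**Figure D2:**
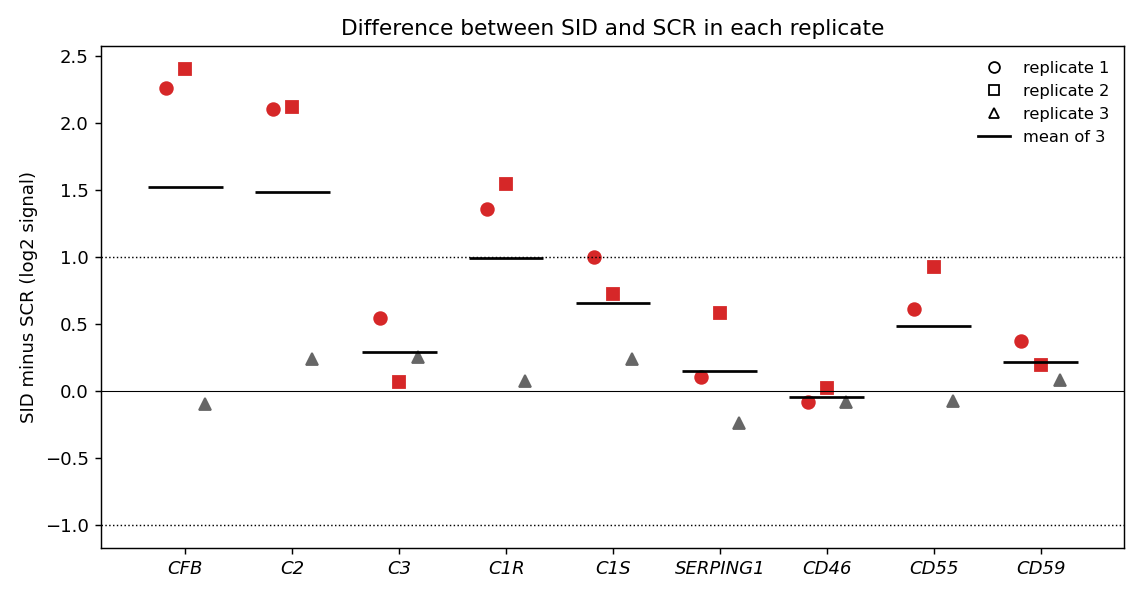
Log2 difference between SID and SCR arrays of the same replicate number for each gene, with the mean of 3 as a bar. Dotted lines mark the fold limit of 1 log2 unit. CFB (2.26 and 2.40), C2 (2.11 and 2.11) and C1R (1.36 and 1.54) passed it in replicates 1 and 2, and no gene passed it in replicate 3.

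Of the surface regulators, CD46 measured 12.79, 12.76 and 12.75 in UT. It was 11.95, 11.79 and 12.59 with SCR, and 11.87, 11.81 and 12.51 with SID. All arrays of both peptides were below all UT arrays, and SCR and SID overlapped. Within replicates 1 and 2 SCR differed from UT by -0.90 (limma adjusted p = 8.32e-05) and SID by -0.93 (limma adjusted p = 5.83e-05), both with SE 0.08 and short of the fold limit. SID and SCR differed there by -0.03 with SE 0.09 (limma adjusted p = 0.870), and by -0.05 with SE 0.25 on 9 arrays (limma adjusted p = 0.996).

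CD55, or decay-accelerating factor, was at 13.24, 13.15 and 13.23 in UT. SCR arrays measured 12.27, 12.12 and 13.25, and SID arrays 12.88, 13.05 and 13.18. As for C1R, the low arrays were SCR replicates 1 and 2, with SID between them and UT. In these replicates SCR was below UT by a log2 difference of -1.01 with SE 0.09 (limma adjusted p = 8.44e-05). Without SCR replicate 2 this difference was -0.94 and no longer past the fold limit. SID exceeded SCR by 0.77 with SE 0.11 (limma adjusted p = 0.0266), under the fold limit, and differed from UT by -0.24 (limma adjusted p = 0.0657). Replicate 3 gave -0.08 between SID and SCR, and the 9 arrays 0.49 with SE 0.27 (limma adjusted p = 0.692).

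CD59, the inhibitor of pore assembly, had the narrowest range of the 9, with 12.63, 12.67 and 12.75 in UT, 12.41, 12.53 and 12.68 in SCR, and 12.78, 12.72 and 12.76 in SID. SID and SCR arrays did not overlap, and SID was higher in 3 of 3 replicates, by 0.37, 0.19 and 0.08. The mean difference was 0.22 with SE 0.08 on 9 arrays (limma adjusted p = 0.657) and did not pass the test. CD59 was the only one of the 9 genes that separated all SID from all SCR arrays upward, as 4.01% of probes did, and none did so downward, as did 1.65%.

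On all 9 arrays limma called 0 of the 9 genes and 0% of 19460 probes in each of the 3 comparisons. At an unadjusted p under 0.05 it had 2 of the 9 between SID and SCR (C1R and CD59), 3 between SID and UT (CFB, C2 and CD46) and 4 between SCR and UT (C1R, C1S, CD46 and CD55), where 7.57%, 12.5% and 14.4% of probes had one. A test per probe without limma's shared variance gave 0 calls, and 0, 1 and 1 of the 9 at an unadjusted p under 0.05, against 1.94%, 8.81% and 9.22% of probes. By the fold limit alone CFB and C2 were higher in SID than in SCR, against 0.545% of probes, and none was lower, against 1.07%. CFB and C2 were also past it upward between SID and UT (3.78% of probes) and C1S downward (3.13%). Between SCR and UT none was past it upward (3.45%), and C1R and C1S were downward (2.66%). With replicates 1 and 2 alone, limma called CFB, C2 and C1R higher in SID and none lower, while it called 1.77% of probes higher, 2.64% lower and 4.41% in either direction. These 3 calls need all 4 arrays: without any 1 of them limma called 0 of the 9, at a lowest adjusted p over all probes of 0.0937 to 0.200. When the 3 UT arrays shared the estimate of the spread, the calls were again CFB, C2 and C1R (5.26% of probes in either direction). With 1 of the SCR or SID arrays left out, that fit gave CFB differences of 2.17 to 2.50. Those of C2 were 1.90 to 2.32 and those of C1R 1.27 to 1.63. Array weights, whose estimate did not fully converge, were 0.176 for SCR and 0.1375 for SID replicate 3, against 0.7004 to 6.923 on the other arrays. That fit thus rested mainly on replicates 1 and 2 of the peptides and is no separate check. It led to the same 3 calls between SID and SCR, with 1.66% of probes higher and 2.25% lower.

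Against UT, which both comparisons share, replicates 1 and 2 gave other patterns. All UT arrays lie in the other array set, so these comparisons cannot tell peptide from set. With SID, limma called CFB (3.10, adjusted p = 1.33e-06) and C2 (2.75, adjusted p = 1.29e-05) higher and C1S lower, where 6.93% of probes were higher and 6.4% lower (13.3% in all). With SCR, C1R, C1S and CD55 were lower and none was higher, where 6.58% of probes were higher and 4.82% lower (11.4% in all). With array weights on 9 arrays SID exceeded UT for 2 of the 9 and was below it for 1 (6.38% and 5.89% of probes), and SCR exceeded UT for 0 and was below it for 2 (5.89% and 4.98%). CFB (0.77, limma adjusted p = 0.00226) and C2 (0.64, limma adjusted p = 0.0240) also exceeded UT with SCR, short of the fold limit. On all 9 arrays CFB of both peptides lay above every UT array, as 10.7% of probes did with SID and 9.52% with SCR. CD46 of both lay below every UT array, as 8.05% of probes did with SID and 12% with SCR. C1R and C1S of SCR also lay below every UT array.

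**Figure D3:**
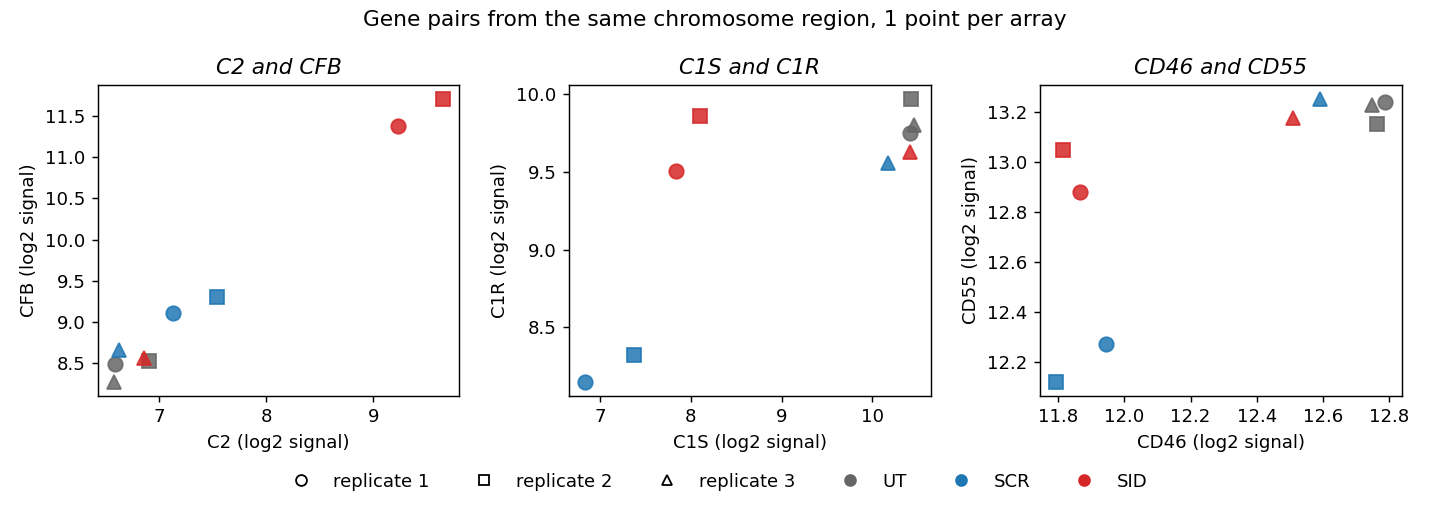
Log2 signals of C2 against CFB, C1S against C1R and CD46 against CD55, 1 point per array, colored by group and shaped by replicate. C2 and CFB rise together over the 9 arrays, while in the other pairs SID replicates 1 and 2 leave the line of the other arrays, with C1R at 9.51 and 9.86 beside C1S at 7.84 and 8.10.

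Genes of the same chromosome region varied in different ways. Over the 9 arrays CFB and C2 had a Pearson r of 0.993, as a description, since the arrays fall into sets and no p is given. C1R and C1S had 0.763 and CD46 and CD55 0.739. C1R was closer to CD55 (0.944), and C1S to CD46 (0.942), than to the gene it is paired with by position. Among all 18417 genes, those most like CFB were RGS4 (0.996) and C2, and those most like C2 were CFB and RGS4 (0.991). The nearest to C1R were DNPH1 (0.997) and DNASE2 (0.996), and to C1S EVA1C (0.999) and ASS1 (0.997). CD46 was nearest to JDP2 (0.994) and TWIST1 (0.994), CD55 to LIMCH1 (0.993) and PAQR6 (0.993), and C3 to PLXNA3 (0.987) and MAN2B2 (0.986). The steadier SERPING1 and CD59 had lower values, with BTG3 (0.969) and CCN6 (0.958) for the first and PDK1 (0.964) and ARF5 (0.963) for the second.

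A list of 55 further genes holds other complement components, regulators and receptors and some genes linked to complement from outside it, such as F2, F3, THBD and PROS1 of coagulation and the urokinase receptor PLAUR. Of these, 49 had a probe with 1 symbol. Over the 9 arrays 34 of the 49 varied by less than 1 log2 unit, among them C1QA, C1QB and C1QC, the recognition subunits of the first component, and the pore components C6, C7, C8A, C8B and C9. Between SID and SCR 38 were above and 11 below 0, with a median of 0.07 against 0.02 over all genes. On 9 arrays limma called 0, with 2 at an unadjusted p under 0.05, as had 1397 of all 18417 genes. With replicates 1 and 2 it called 1 of 49, PROS1, higher in SID and none lower, where 1.78% of all genes were higher and 2.66% lower. PROS1 encodes protein S, which binds C4b-binding protein in plasma. It was at 10.48, 10.16 and 10.33 in UT, 8.92, 9.24 and 9.92 in SCR, and 10.41, 10.50 and 9.77 in SID. SID replicates 1 and 2 were thus close to UT and SCR replicates 1 and 2 below it, the order also seen for C1R.

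More of these genes differed from UT in replicates 1 and 2, 5 higher and 5 lower with SID, and 4 higher and 9 lower with SCR. Over all genes 7.01% were higher and 6.49% lower with SID, and 6.66% and 4.89% with SCR. Of those higher, C5 and CFP with SID and C5 with SCR are complement components, and the others were F3, PLAUR and THBD. CFI, the protease that cleaves C3b with CD46 as cofactor, measured 10.38, 10.03 and 10.08 in UT. It was at 6.35 and 6.07 in SCR and 6.36 and 6.82 in SID replicates 1 and 2, and at 9.75 and 9.56 in replicate 3. C4BPA and C4BPB, the chains of C4b-binding protein, and the anaphylatoxin receptors C5AR1 and C5AR2 were likewise lower than UT in replicates 1 and 2 of both peptides. For C5AR2 the difference from UT was -3.36 with SCR and -3.03 with SID (limma adjusted p = 2.65e-07 and 3.54e-07). F3, or tissue factor, and THBD, or thrombomodulin, of the coagulation cascade were higher with both, F3 by 3.49 with SCR and 4.43 with SID (limma adjusted p = 1.07e-07 and 3.65e-08). CFD, which cleaves factor B, was lower by a difference of -1.49 with SCR (limma adjusted p = 8.11e-06), while its -0.97 with SID was short of the fold limit. On 9 arrays none of these passed the test: with SID the differences from UT were -2.19 for C5AR2, 2.96 for F3 and -0.60 for CFD (limma adjusted p = 0.388, 0.388 and 0.516).

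**Figure D4:**
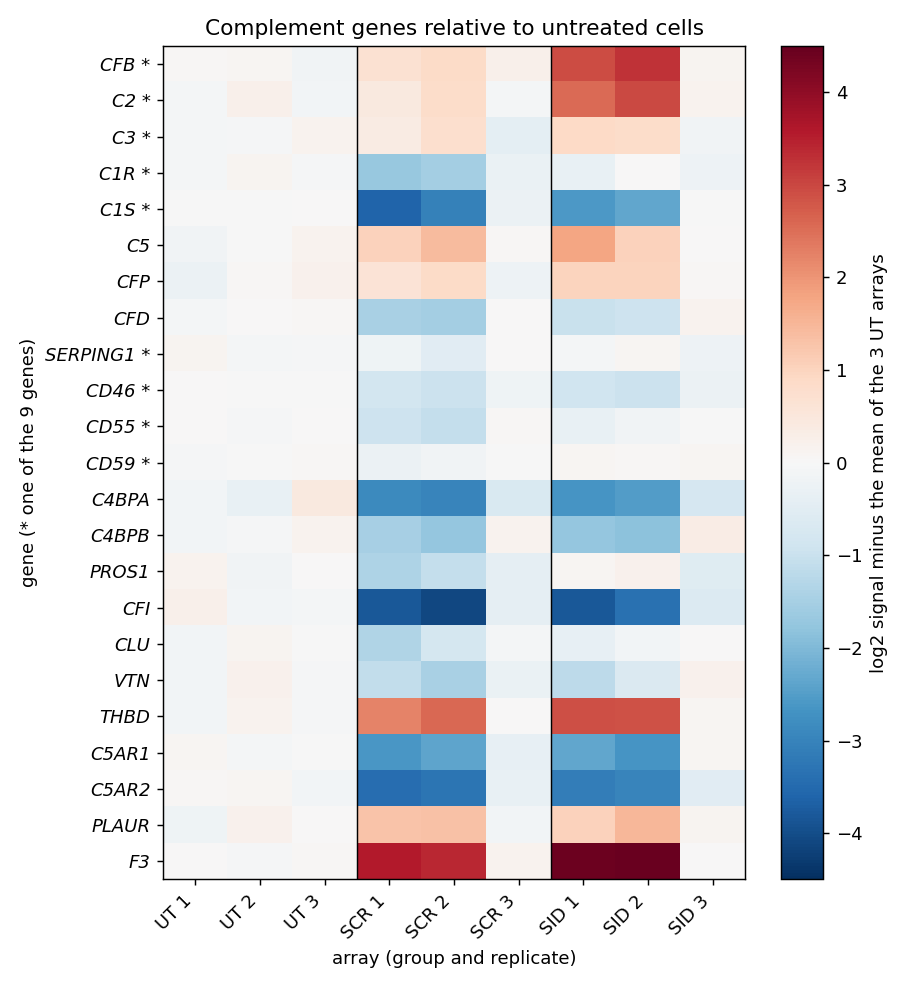
Log2 signal minus the mean of the 3 UT arrays for the 9 complement genes (marked *) and for the other complement genes whose means in UT, SCR and SID (replicates 1 and 2) span over 1 log2 unit. Red is above and blue below UT. Columns of replicate 3 are within 1 log2 unit of UT, and CFB and C2 are above 2.5 in SID replicates 1 and 2.

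Cytokines, their signal carriers and other acute phase genes were counted because they are known inducers or companions of CFB, C2 and C3. Of 40 such genes 38 were measured. Between SID and SCR 26 were above and 12 below 0, with a median of 0.17 against 0.02 over all genes. On 9 arrays limma called 0, with 3 at an unadjusted p under 0.05, as had 1397 of all 18417 genes. With replicates 1 and 2 alone, IL6, IL1RN and SERPINA3 were called higher in SID and none lower, where 1.78% of all genes were higher and 2.66% lower. IL6, a cytokine of the acute phase, measured 8.95, 8.70 and 9.004 in UT, 10.59, 10.22 and 9.17 in SCR, and 11.70, 11.77 and 9.85 in SID. SID was above SCR in each replicate, and in replicates 1 and 2 by 1.33 with SE 0.15 (limma adjusted p = 0.0207). SERPINA3, the acute phase antichymotrypsin, exceeded SCR there by 1.51 (limma adjusted p = 0.0249), and IL1RN, the antagonist of interleukin 1, by 1.14 (limma adjusted p = 0.0205). In replicate 3 the differences were 0.68 for IL6, 0.10 for SERPINA3 and -0.13 for IL1RN.

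Some of these genes were called higher than UT with both peptides in replicates 1 and 2. SAA2, a serum amyloid A, was at 6.65 to 6.80 in UT, 12.66 and 12.65 in SCR, and 12.82 and 12.96 in SID replicates 1 and 2, against 6.56 and 6.95 in replicate 3. IL1A exceeded UT by 4.93 with SCR and 5.73 with SID (limma adjusted p = 8.63e-07 and 3.54e-07). In all, 14 of 38 were higher and 1 lower than UT with SID, where 7.01% of all genes were higher and 6.49% lower. With SCR 12 were higher and 2 lower, against 6.66% and 4.89%. The acute phase genes HP, CRP, ORM1, ORM2 and LBP differed from UT by -0.32 to -0.03 in these replicates, and CP by -0.58 with SCR and -0.71 with SID (limma adjusted p = 0.00170 and 0.000545). On 9 arrays 0 of the 38 were called against UT, with IL1A at 3.24 for SCR and 3.80 for SID (limma adjusted p = 0.418 and 0.390). IRF1, a factor of the interferon response, was higher than UT with both, by 1.46 with SCR and 1.13 with SID, and did not pass the test between SID and SCR (-0.33, limma adjusted p = 0.276). Whether these genes had a part in the signals of CFB, C2 and C3 was not tested.

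**Figure D5:**
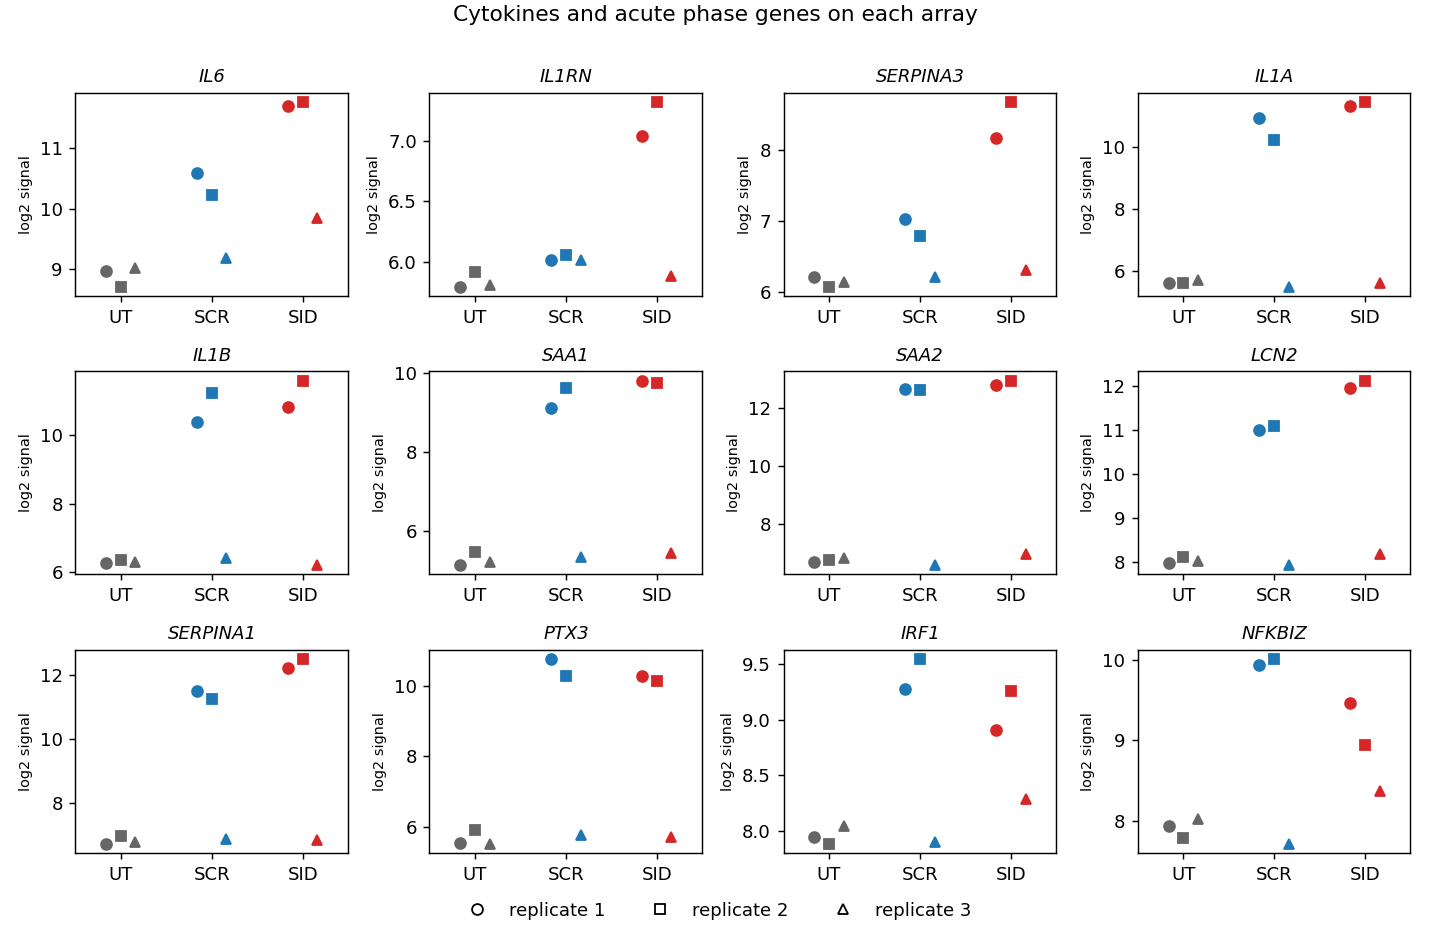
Log2 signal (vertical axis, own range in each panel) of 12 cytokine, acute phase and signal genes on each array, with symbols for replicates. IL6, IL1RN and SERPINA3 in the first panels are highest in SID replicates 1 and 2, while SAA2 is at 12.65 to 12.96 in replicates 1 and 2 of both peptides.

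CD55 and CD59 are held in the membrane by a GPI anchor, so genes of anchor synthesis and other anchored proteins were counted. Of 28 synthesis genes 27 were measured, with a median difference between SID and SCR of 0.01 against 0.02 over all genes. On 9 arrays limma called 0, with 4 at an unadjusted p under 0.05, as had 1397 of all 18417 genes. The synthesis enzymes PIGM and PIGW were called lower in SID in replicates 1 and 2 and 25 were not called, where 2.66% of all genes were lower. PIGM was at 10.54 to 10.59 in UT, 10.68, 10.63 and 10.54 in SCR, and 8.99, 8.05 and 10.73 in SID. PIGW differed between SID and SCR by -2.00 with SE 0.20 in replicates 1 and 2 (limma adjusted p = 0.0190) and by 0.45 in replicate 3. Of 26 other anchored proteins 0 were called by limma on 9 arrays, with 6 at an unadjusted p under 0.05, again against 1397 of 18417 genes. In replicates 1 and 2, 4 were higher and 4 lower in SID, against 1.78% and 2.66% of all genes. CD109 (-3.40, limma adjusted p = 0.0160) and CD24 (-3.18, limma adjusted p = 0.0217) differed most downward, and FOLR1 (1.61, limma adjusted p = 0.0226) and MELTF (1.41, limma adjusted p = 0.0161) were higher. In replicate 3 these 4 differed by -0.13 (CD109), -0.03 (CD24), 0.08 (FOLR1) and -0.10 (MELTF). CD55 and CD59 themselves differed by 0.77 and 0.28 in replicates 1 and 2.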

How the data were processed

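RNA of 9 cultures was measured on Affymetrix arrays. The authors deposited log2 signals per transcript cluster and name Affymetrix Expression Console, RMA and Transcriptome Analysis Console in the labels, without versions or settings. The log2 scale was read from the values (3.75 to 14.94). The study's single-probe analysis in ChipInspector cannot be repeated from these values. Of 33297 probes, 19460 have 1 gene symbol and were tested, 1754 have several and 12083 none.

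Group means were compared over all tested probes with limma 3.58.1 (lmFit and eBayes) in R 4.3.3, with Benjamini-Hochberg adjustment. Probes were called at an adjusted p under 0.05 where the means also lay more than 1 log2 unit apart. The procedure was tested on simulated data. A test without shared variance used the same values. Figures were drawn with matplotlib 3.10.9. The number of arrays limits the precision.

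The members and lists were chosen with earlier results of these data known, as was the fit on replicates 1 and 2 alone. Named genes were the members, and from each list those with the largest differences or next to a member in the cascade. Deviations of SCR and SID arrays with the same number correlated at 0.774, 0.575 and 0.791, each over 0.1, and by that criterion the numbers pair SCR with SID. SCR 1 with SID 2 (0.604) and SCR 2 with SID 1 (0.748) correlated as much, so the values follow the array sets and do not tell replicate 1 from 2. UT numbers did not pair. Alternatives were a replicate block, array weights, quantile normalization, median centring, no probe filter, and each array left out in turn.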

Additional observations from a re-analysis of the deposited data

How the results depend on the processing

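Calls changed with replicate 3 left out, and the cause was not tested. The count of the 9 genes called was 0 on 9 arrays in each comparison. Between SID and SCR it was 2 by the fold limit alone, 3 with array weights (whose estimate did not fully converge), 3 with replicates 1 and 2 alone, and 0 to 2 without 1 array (C1R without SCR replicate 3, CFB and C2 without SID replicate 3). Between SID and UT it was 3, 3, 3 and 0 to 2 under the same settings (2 without SID replicate 3). Between SCR and UT it was 2, 2, 3 and 0 to 3 (3 without SCR replicate 3). Of all 19460 probes, 63 were called higher and 160 lower between SID and SCR without SCR replicate 3. Between SCR and UT these were 615 and 456. Without SID replicate 3 they were 279 and 369 between SID and SCR, and 917 and 1029 between SID and UT. With replicates 1 and 2 alone, the count between SID and SCR was 0 without any 1 of the 4 arrays. With the UT arrays in that fit, a choice made after seeing the data, it was 3. With the replicate block 0 genes were called in each comparison, and 0 with the block on SCR and SID alone, also added later, while 4 of the 9 had an unadjusted p under 0.05 in each block fit over 9 arrays (as had 1551, 4089 and 4008 of 19460 probes). In replicate 3 alone the sign turned between SID and SCR for CFB (-0.0948), SERPING1 (-0.242) and CD55 (-0.0771), between SID and UT for C3 (-0.171), and between SCR and UT for C2 (-0.0711), C3 (-0.4258), SERPING1 (0.0143) and CD55 (0.0446). Leaving out 1 array turned it between SID and SCR for C3 (-0.0397 to 0.6303), C1S (-0.1617 to 1.6775) and CD46 (-0.2701 to 0.1931), and between SCR and UT for C3 (-0.032 to 0.5550). Of 180 values between SID and SCR under the alternatives, 163 kept their direction and side of the threshold. In the comparisons with UT, 162 of 171 and 158 of 171 did so. Values of replicate 3 alone, which had no test, were counted by direction only. Since the fit on 9 arrays called 0 of the 9 genes, keeping the side meant staying uncalled. Signals near the lower end of the table limit what can be seen for the low complement genes.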
